A study of Homo sapiens with 238 samples.

Results

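αRes4 is one of 4 single-cell clones of K562 in which a G-quadruplex was put back into the α-globin enhancer HS-40, and here its RNA was compared with that of αMut1, the mutated clone it was edited from. Members were chosen by title alone. All RNA libraries titled αRes4 (4, numbered B1 to B4) and all those titled αMut1 (7, numbered B1 to B7) were taken, 11 of the 43 RNA libraries of the α series and of the 62 RNA libraries of the whole study.

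K562 is an established human erythroleukemia cell line, grown here in RPMI1640 with fetal bovine serum and without any treatment. αRes4 carries the mutated HS-40 enhancer in which a G4 of another primary sequence was inserted, αMut1 carries HS-40 with its own G4 sequence mutated, and αWT is the unedited line. αRes1, αRes2 and αRes3 were derived from αMut1 by the same edit as αRes4, and αMut2 is a second clone with the mutated sequence. Each edited line is 1 clone, so p-values measure the spread between cultures of a clone and not between independent edits, and the edit cannot be told apart from other differences between clones. RNA from whole cultures was enriched for polyadenylated transcripts and sequenced in pairs of 51 bases. The comparison asks what the re-inserted G4 goes along with, at the globin genes and in the rest of the transcriptome.

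G-quadruplexes (G4s) are 4-stranded structures that form in G-rich DNA and are common in active promoters and enhancers. HS-40 is the distal enhancer of the α-globin cluster on chromosome 16, where the embryonic gene HBZ and the adult genes HBA2 and HBA1 lie in the order in which they are used in development. K562 cells stand at an embryonic to fetal stage of erythroid development and transcribe HBZ, HBE1 and the fetal HBG genes, but very little adult HBB.

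The αRes4 libraries held 16248587 to 20967733 counted reads and the αMut1 libraries 17701807 to 30174241. Levels are counts scaled to a fixed library size of 1000000 (CPM) after TMM scaling, and fold changes are given as log2 values of αRes4 over the other line with their standard error (SE). The 9 erythroid markers, among them GATA1, KLF1 and TFRC, were detected in all 11 libraries. Their summed level was 3823 to 3970 CPM in αRes4, against 2363 to 3281 CPM in αMut1. Libraries within both lines stood apart. RNA of the 13 mitochondrially encoded genes made up 3.11%, 4.07%, 2.34% and 1.53% of CPM in αRes4 B1, B2, B3 and B4, against 0.707% to 1.60% in αMut1. The 7 αMut1 libraries fell into B1 to B4 and B5 to B7, with 2491 genes higher and 2809 lower in B5 to B7. Finally, all αRes4 libraries hold reads of pseudoautosomal genes and the αMut1 libraries hold at most 1, which points to different alignment references. Only αRes1 and αRes2 have libraries of both kinds, and they were used to estimate the shift between them (the reference term). In both of these clones the kinds coincide with B1 to B4 and B5 to B8, so the reference term also takes up any difference between those sets of cultures. A further fit, the 2-term fit, held the number set as a term beside the reference. The results were recomputed against αMut1 B1 to B4 alone, against B5 to B7 alone and in both of these fits, and calls of named genes lost there are given beside them.

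Of 18227 genes tested, 3361 were higher in αRes4 than in αMut1 (18.4%) and 2557 were lower (14.0%). A call needed both a log2 change of more than 0.5 either way and an adjusted p under 0.05 (edgeR). Over protein-coding genes alone the shares were 14.5% and 16.2%. Counts of list members called below are to be read beside these shares. Changes above 1 on the log2 scale numbered 1388 and those below -1 numbered 868. The 4 αRes4 libraries lay above all 7 αMut1 libraries for 2705 of the genes called higher and below them for 2059 of those called lower. Over all 18227 genes, called or not, they lay above for 3533 and below for 3463. Against both sets of αMut1 libraries, 2456 genes were called higher and 1527 lower, and with the reference term 1863 and 1723 kept the call. Since αRes4 shares its libraries with each of the next 2 comparisons, these are given side by side only. Against the mean of αRes1, αRes2 and αRes3, 3551 genes were higher in αRes4 (19.5%) and 2254 lower (12.4%). Against αWT, 4236 were higher (23.2%) and 3141 lower (17.2%).

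The α-globin genes were about 2 times as abundant in αRes4 as in αMut1. HBA1 (chr16:176680-177522, plus strand), an adult α-globin gene and the target the study followed, had 271, 316, 255 and 275 CPM in αRes4 B1 to B4, against 108 to 178 CPM in αMut1 with a median of 133. The lowest αRes4 library lay above the highest αMut1 library. The log2 change was 1.00 (SE 0.20, edgeR adjusted p = 7.76e-05). An exact permutation test over the 330 ways of dividing these 11 libraries (two-sided) yielded p = 0.00606, which is its smallest possible value, and 0.00779 after adjustment over the 9 globin genes. The test treats the αMut1 libraries as interchangeable, although B1 to B4 and B5 to B7 differed. The lines also differ in the inferred alignment reference, so the test cannot tell line and reference apart. Against αMut1 B1 to B4 the change was 1.23 and against B5 to B7 it was 0.74. With the reference term it was 0.39 and no longer passed (adjusted p = 0.129), and in the 2-term fit it was 1.04 (SE 0.25, adjusted p = 0.000527) and passed. In bulk RNA, fewer cells that express a gene and less RNA per cell cannot be told apart, here and in every result below.

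HBZ, the embryonic ζ-globin gene, had 554, 587, 533 and 557 CPM in αRes4, against 195 to 312 CPM in αMut1 with a median of 296. Its log2 change was 1.07 (SE 0.22, adjusted p = 0.000114), without overlap of libraries. HBA2, whose transcript is nearly identical to that of HBA1 so that reads may be split between them, averaged 166 ± 8.7 CPM in αRes4 and 80.6 ± 22 CPM in αMut1 (SD, n = 4 and 7), a log2 change of 1.04. HBQ1, a θ-globin gene of unclear function, had 17.8, 24.1, 17.3 and 15.6 CPM in αRes4, against 5.86 to 17.6 CPM in αMut1. Here the lines overlapped. αMut1 B5 to B7 lay between 15.6 and 17.6 CPM, and against them the HBQ1 change was 0.16 and did not pass. None of the 4 α-globin genes passed with the reference term, with changes of 0.23 to 0.45, and all 4 were called higher in the 2-term fit.

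AHSP, the chaperone that binds free α-globin, had 5.53, 4.23, 4.25 and 4.83 CPM in αRes4, against 1.198 to 1.49 CPM in αMut1 B1 to B4 and 7.89 to 8.22 CPM in αMut1 B5 to B7. The αRes4 libraries lay between the αMut1 sets, and the log2 change of 0.17 over all 7 did not pass (adjusted p = 0.808). It was 1.87 against the first set, -0.77 against the second and 2.85 in the 2-term fit, and passed in each.

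Near the α-globin cluster 13 flanking genes were tested, and in αRes4 2 of them were higher and none lower, against 18.4% and 14.0% over all genes. Against αMut1 B5 to B7 the count was 2 higher and 2 lower, with the reference term none higher and 2 lower, and in the 2-term fit 5 higher and none lower. RHBDF1 (chr16:58059-76355, minus strand), an inactive rhomboid protease upstream of the globin genes, had 17.8, 22.99, 18.1 and 16.3 CPM in αRes4, against 2.65 to 7.80 CPM in αMut1. Its log2 change of 1.93 (SE 0.34, adjusted p = 1.43e-05) exceeded that of every α-globin gene, and was 0.71 and no longer called with the reference term, and 2.51 and called in the 2-term fit. NPRL3, which encodes a subunit of a complex that restrains mTORC1 and holds HS-40 in an intron, averaged 118 ± 9.7 CPM in αRes4 and 75.8 ± 3.1 CPM in αMut1, a change of 0.64 that became -0.024 with the reference term and 0.085 in the 2-term fit, without a call in either. LUC7L, a splicing factor gene downstream of the cluster, had a change of 0.30, below the threshold, and 0.64 with a call in the 2-term fit.

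On chromosome 11, outside the edited cluster, 4 of the 5 β-like globin genes were also higher in αRes4. HBE1, the embryonic ε-globin gene, had 89.6, 98.9, 87.6 and 80.0 CPM in αRes4, against 20.5 to 25.3 CPM in αMut1 B1 to B4 and 51.7 to 54.6 CPM in αMut1 B5 to B7. All αRes4 libraries exceeded both sets, and the log2 change was 1.30 (SE 0.22, adjusted p = 6.18e-06). The fetal gene HBG1 had 472 to 617 CPM in αRes4, against 222 to 375 CPM in αMut1 with a median of 307, a change of 0.86. Its near-identical partner HBG2 had 497, 530, 446 and 403 CPM in αRes4, against 257 to 408 CPM in αMut1. The lines overlapped at HBG2 and its change of 0.48 stayed just under the threshold.

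HBD, the minor adult δ-globin gene, had 174, 172, 136 and 122 CPM in αRes4, against 45.0 to 70.1 CPM in αMut1 with a median of 59.9. The log2 change was 1.35 (SE 0.28, adjusted p = 0.000165). HBB, the adult β-globin gene, had 10.8, 10.9, 8.22 and 5.36 CPM in αRes4, against 0.798 to 1.97 CPM in αMut1, a change of 2.85 (SE 0.41, adjusted p = 3.73e-07). HBE1 and HBB kept their call with the reference term, whereas HBG1 (0.41) and HBD (0.19) lost it, and in the 2-term fit all 5 β-like genes were called higher. Summed over the 9 globin genes, αRes4 held 2385, 2531, 2163 and 2095 CPM, against 909 to 1479 CPM in αMut1 with a median of 1280.

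Set beside the other rescue clones, αRes4 was not extreme for the α-globin genes. HBA1 averaged 279 ± 25.9 CPM in αRes4, against 170 ± 64.2 in αRes1, 258 ± 51.9 in αRes2, 358 ± 59.3 in αRes3 and 172 ± 33.7 in αWT (SD, n = 4, 8, 8, 4 and 8), and the log2 difference of 0.16 between αRes4 and the mean of αRes1 to αRes3 did not pass (adjusted p = 0.47). No α-globin gene was called against that mean. By contrast, HBD and HBB were highest in αRes4 among the rescue clones. HBD averaged 151 ± 26.2 CPM there, against 39.4 ± 9.1 to 63.7 ± 36.9 CPM in the other 3 rescue clones, and HBB 8.82 ± 2.62 CPM against 0.584 ± 0.219 to 2.22 ± 0.671 CPM. The tests of these differences gave log2 values of 1.53 for HBD (adjusted p = 9.25e-07), 2.92 for HBB (1.65e-09) and 0.66 for HBE1 (0.0035).

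Heme, which every globin chain binds, is made from glycine and succinyl-CoA in a pathway that starts and ends in mitochondria. Of 18 tested genes of heme synthesis, 5 were higher in αRes4 and 3 lower. ALAS2 (chrX:55009055-55030977, minus strand), the erythroid form of the first and rate-limiting enzyme, had 671, 686, 736 and 718 CPM in αRes4, against 198 to 370 CPM in αMut1 with a median of 221. There was no overlap, and the log2 change was 1.35 (SE 0.22, adjusted p = 3.97e-06), and 0.49 without a call in the 2-term fit. SLC25A37, the mitochondrial iron importer mitoferrin-1, reached 1459, 1803, 1467 and 1456 CPM in αRes4, against 331 to 666 CPM in αMut1, a change of 1.68 (SE 0.22, adjusted p = 6.50e-08).

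UROD, the enzyme that makes coproporphyrinogen III, had 715, 726, 730 and 714 CPM in αRes4, against 354.6 to 465.6 CPM in αMut1 and a change of 0.82. TMEM14C, which carries protoporphyrinogen into the mitochondrial matrix, and ABCB6, a porphyrin transporter, rose by 0.70 and 1.1 on the log2 scale. FECH, ferrochelatase, which inserts iron in the last step, moved the other way, with 120.0, 107, 125 and 130.3 CPM in αRes4, against 157 to 215 CPM in αMut1. Its change was -0.62 (SE 0.07, adjusted p = 9.52e-09), and -0.46 and -0.37, short of the threshold, against αMut1 B1 to B4 and in the 2-term fit. TFR2, a transferrin receptor that takes part in iron sensing, fell by 0.92, and BLVRB, a biliverdin reductase of red cells, rose by 0.83 (0.47 and not called against αMut1 B5 to B7).

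The 250 bases before the start of 4 of the erythroid genes that rose are shown because the genes moved together. No promoter sequence was at hand for HBA1, HBZ, HBE1 or SLC4A1. Matches to 3 promoter motifs are in capitals. The GATA motif is spelled GATAA on one strand and TTATC on the other. The KLF motif is spelled CACCC on one strand and GGGTG on the other, and the CCAAT box reads ATTGG on the opposite strand. In RefSeq GRCh38.p14 promoters of this length, 20.4% of 35116 hold the GATA motif, 54.7% the CACCC motif and 32.0% the CCAAT motif. The promoters are those of ALAS2 (chrX:55030978-55031227, minus strand), HBD (chr11:5234484-5234733, minus strand), UROD (chr1:45012004-45012253, plus strand) and TSPAN33 (chr7:129144457-129144706, plus strand).
ALAS2: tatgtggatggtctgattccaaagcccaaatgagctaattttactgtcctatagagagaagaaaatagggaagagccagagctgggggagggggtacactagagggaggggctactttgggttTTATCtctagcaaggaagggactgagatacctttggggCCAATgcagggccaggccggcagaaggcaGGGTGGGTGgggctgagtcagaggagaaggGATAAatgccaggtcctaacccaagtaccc
HBD: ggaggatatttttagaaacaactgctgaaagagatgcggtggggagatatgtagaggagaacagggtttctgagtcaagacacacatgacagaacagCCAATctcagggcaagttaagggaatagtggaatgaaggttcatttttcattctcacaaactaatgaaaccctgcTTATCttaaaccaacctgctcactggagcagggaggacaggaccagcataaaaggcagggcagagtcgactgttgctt
UROD: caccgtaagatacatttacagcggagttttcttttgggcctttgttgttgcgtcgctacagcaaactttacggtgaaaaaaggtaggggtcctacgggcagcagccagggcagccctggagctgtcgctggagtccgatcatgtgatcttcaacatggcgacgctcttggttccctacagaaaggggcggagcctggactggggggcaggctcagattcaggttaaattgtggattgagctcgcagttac
TSPAN33: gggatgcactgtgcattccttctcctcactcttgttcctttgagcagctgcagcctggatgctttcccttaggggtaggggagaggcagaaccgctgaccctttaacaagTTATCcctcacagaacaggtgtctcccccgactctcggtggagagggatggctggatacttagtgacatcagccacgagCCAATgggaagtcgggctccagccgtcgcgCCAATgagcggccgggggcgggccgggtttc
The ALAS2 window holds 2 GATA matches, 2 overlapping CACCC matches and 1 CCAAT match, HBD 1 GATA and 1 CCAAT match, TSPAN33 1 GATA and 2 CCAAT matches, and UROD none. These are letters in a window and not measured sites.

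Among 26 tested genes of the red cell surface, blood groups and channels, 8 were higher in αRes4 and 3 lower. RHD and RHCE, the Rh blood group antigens whose near-identical transcripts may share reads, both rose by 1.21. RHD had 97.03, 91.8, 102.5 and 98.88 CPM in αRes4, against 24.2 to 61.7 CPM in αMut1. SLC2A1, the glucose transporter GLUT1, had 543.2, 495.0, 568.1 and 598.2 CPM in αRes4, against 241 to 335 CPM in αMut1, a change of 0.95 (SE 0.08, adjusted p = 5.34e-12). In each of these genes all αRes4 libraries lay above all αMut1 libraries.

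CA2, the carbonic anhydrase of the red cell interior, showed one of the largest rises of any gene. It had 13.96, 12.34, 11.03 and 12.6 CPM in αRes4, against 0.553 to 1.51 CPM in αMut1, a log2 change of 3.72 (SE 0.36, adjusted p = 5.76e-11), and it was 4.25 above the mean of the other rescue clones and 5.06 above αWT. SLC4A1, the anion exchanger band 3, had 318, 316, 377 and 402 CPM in αRes4, against 144 to 187 CPM in αMut1, a change of 1.09 that turned to -0.26 with the reference term and was 0.65 in the 2-term fit, without a call in either. TSPAN33, a tetraspanin of erythroid progenitors, rose by 2.61, with 10.6, 9.52, 12.56 and 14.03 CPM in αRes4 against 1.23 to 2.95 CPM in αMut1. BSG, basigin, and ADD1, a subunit of adducin in the membrane skeleton, were lower, by -0.66 and -0.62. Of the 14 skeleton genes, 3 were higher and 1 lower, against 18.4% and 14.0% over all genes.

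Of 26 tested transcription factors of the erythroid program, 1 was higher in αRes4 and 6 were lower. Their median log2 change was -0.27, against 0.01 over all genes and -0.06 over protein-coding genes. Against αMut1 B1 to B4 alone 4 were higher and 6 lower, with a median of -0.06. MYB, which keeps erythroid progenitors proliferating, had 129, 127, 128 and 141 CPM in αRes4, against 174 to 251 CPM in αMut1, a change of -0.70 (SE 0.10, adjusted p = 6.21e-07). IKZF1, RUNX1 and NFE2L1, all DNA-binding regulators of blood or stress genes, fell by 0.70, 0.74 and 0.57. MYB and RUNX1 did not reach the threshold against αMut1 B5 to B7, at -0.43 and -0.44, nor NFE2L1 against B1 to B4, at -0.47, or in the 2-term fit, at -0.48, and MYB lost its call with the reference term (-0.48).

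Of 26 tested regulators of the switch between globin genes, 1 was higher, 7 were lower and 18 were not called. SOX6, a silencer of embryonic globin genes, had 10.9, 9.64, 9.98 and 11.4 CPM in αRes4, against 17.2 to 33.7 CPM in αMut1, a change of -1.31 (SE 0.19, adjusted p = 4.11e-07), although its difference of 0.13 from the mean of the other rescue clones did not pass. MBD2, a reader of methylated DNA, had 23.6, 19.1, 25.9 and 24.2 CPM in αRes4, against 50.8 to 60.2 CPM in αMut1, a change of -1.23. LIN28B, an RNA-binding protein that favours fetal globin, fell by 0.94, while its paralog LIN28A was the member that rose, by 3.21, at a low level of 1.34 to 1.80 CPM in αRes4 against 0.0347 to 0.299 CPM in αMut1. RCOR1, the CoREST corepressor, and SP1, a GC-box factor, fell by 0.75 and 0.63.

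In erythropoietin and KIT signalling, 2 of 19 genes were higher and 5 lower. KIT, the receptor for stem cell factor, had 32.8, 21.3, 26.0 and 22.2 CPM in αRes4, against 2.75 to 7.54 CPM in αMut1. The change was 2.35 (SE 0.25, adjusted p = 9.14e-10), with 2.29 over the mean of the other rescue clones and 1.79 over αWT. In the 2-term fit KIT lost its call (0.35). Downstream, STAT5A, the transducer of erythropoietin signals, had 212, 226, 257 and 267 CPM in αRes4, against 441 to 634 CPM in αMut1, a change of -1.16, and -0.39 without a call in the 2-term fit. SOCS2 and GAB2, a feedback inhibitor and an adaptor of the same pathway, fell by 0.91 and 0.74.

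The 12 largest rises and 12 largest falls were taken from 817 and 1015 protein-coding genes that were called against all αMut1 libraries and against both sets, did not overlap and reached 5 CPM in the higher line. CHST3, a chondroitin sulfotransferase of the Golgi, led the rises, with 16.8, 16.8, 16.9 and 19.1 CPM in αRes4 against 0 to 0.104 CPM in αMut1. Its log2 change was 7.91 (SE 0.40, adjusted p = 1.53e-18), and in the other rescue clones it averaged 0.0672 to 0.394 CPM. NR5A1, the nuclear receptor SF-1 of steroid-producing tissue, had 10.6, 11.3, 11.7 and 13.1 CPM in αRes4, against 0.0805 to 0.262 CPM in αMut1, a change of 6.09. Both genes were near silent in every αMut1 library.

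The other rises ran between 3.71 and 5.07 on the log2 scale. They included the secreted carboxypeptidase-like CPXM1 (5.07), the metallothionein MT4 (5.05), the zinc finger gene ZNF141 (4.92), ANKRD33 (4.55), the tetraspanin CD9 (4.33), the potassium-chloride cotransporter SLC12A7 (4.09), the calcineurin-dependent factor NFATC4 (3.84), CA2 and the exchange factor MCF2 (3.71). SLC12A7 had 54.6, 56.1, 52.8 and 51.8 CPM in αRes4 against 1.56 to 5.24 CPM in αMut1, and with the reference term its change was 1.00 and no longer called. All of these rises, CHST3 and NR5A1 included, were also called higher in αRes4 than in αWT and than in the mean of αRes1 to αRes3.

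MAGEA1, a cancer-testis antigen, fell most, to 0.388, 0.169, 0.143 and 0.313 CPM in αRes4, against 45.4 to 87.2 CPM in αMut1. Its change was -7.94 (SE 0.43, adjusted p = 5.35e-18). Its level was also low in αRes3 (1.59 ± 0.421 CPM), and 69.9 ± 4.76 and 66.3 ± 12.0 CPM in αRes1 and αRes2. CYB5A, cytochrome b5, showed the same pattern of clones, with 0.0485 to 0.0955 CPM in αRes4 and 0.28 ± 0.0267 CPM in αRes3, against 14.2 to 16.5 CPM in αMut1, a change of -7.61 (SE 0.22, adjusted p = 1.40e-27). ZNF521, a zinc finger factor of blood progenitors, and PCDH10, a protocadherin, were low in every αRes4 library and high in every αMut1 library, with changes of -6.66 and -6.22.

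Other falls rested on αMut1 libraries that differed among themselves. AMBN, an enamel matrix protein, had 0.0485 to 0.113 CPM in αRes4, against 1.49 to 35.2 CPM in αMut1, and TMEM176A, a membrane protein, 0 to 0.394 CPM against 4.91 to 26.1 CPM. FSTL5, a follistatin-like protein, came closest to overlapping, with 0.194, 0.113, 0.0478 and 0 CPM in αRes4 against 0.203 to 28.3 CPM in αMut1, and its change of -7.06 (SE 1.74) did not hold with the reference term (-0.53). TMEM176B (-6.67), the G protein subunit GNG2 (-6.43), MYBPC2 of the sarcomere (-5.88), the zinc transporter SLC30A8 (-5.83) and ELSPBP1 (-5.62) completed the 12. AMBN, GNG2, MYBPC2, ELSPBP1, TMEM176A and TMEM176B were not called different between αRes4 and αWT.

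**Figure D1:**
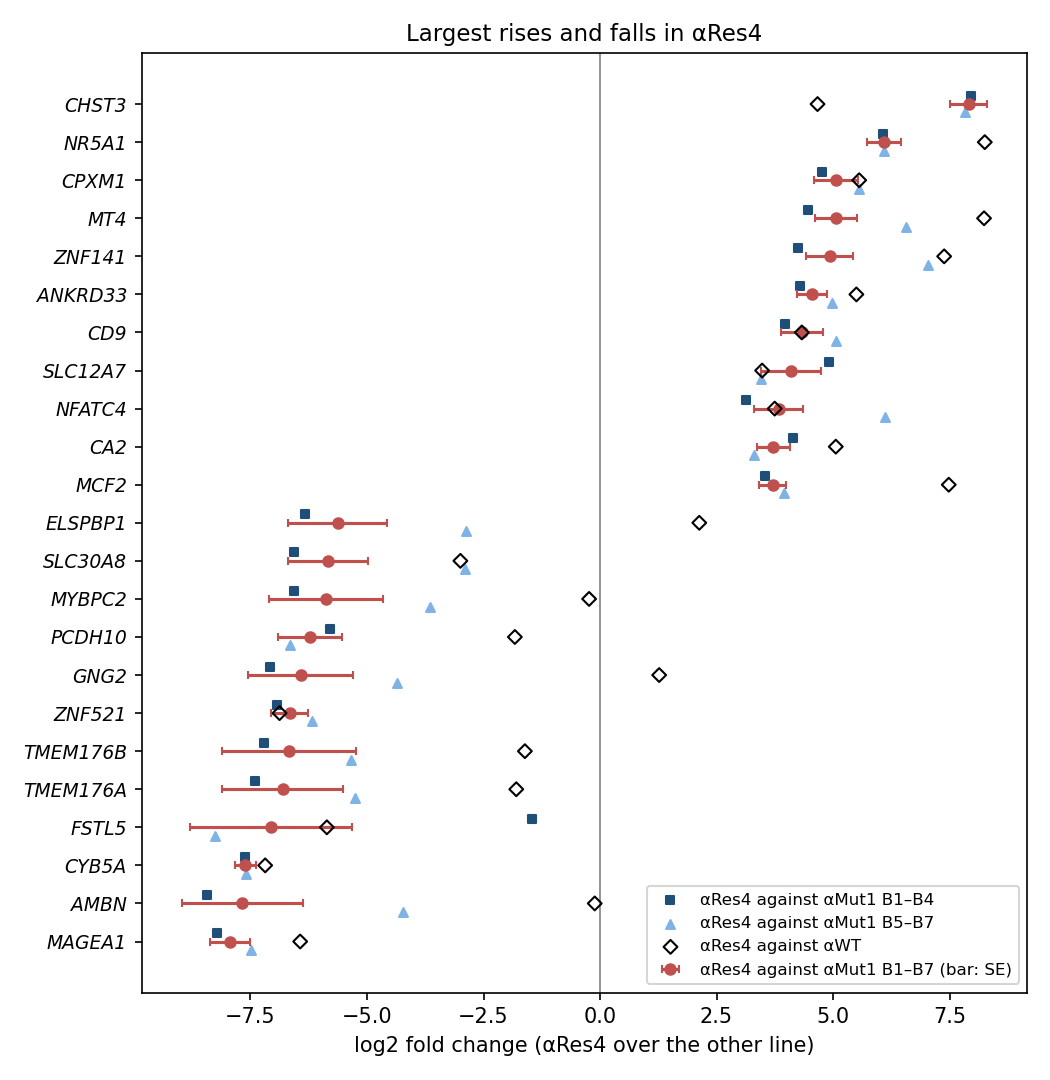
Log2 fold changes (x axis) in αRes4 of 11 genes among the 12 that rose most and of the 12 that fell most against αMut1 (red points, bars of 1 SE), with the change against αMut1 B1 to B4 (squares), B5 to B7 (triangles) and αWT (open diamonds). CHST3 (7.91) and NR5A1 (6.09) stand highest and MAGEA1 (-7.94) lowest. AMBN, GNG2 and MYBPC2 have diamonds near or above 0.

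A smaller group was picked for lying close to the unedited line, within 0.25 on the log2 scale. The share of all genes this close is not given here, so no excess can be read from the counts. Of the genes that met the conditions above, 66 higher and 97 lower in αRes4 than in αMut1 lay this close to αWT. Among the rises were LINGO1 (2.08), NPTXR (1.66) and LRCH2 (1.81), which code for membrane proteins studied in neurons, SPATS2L (1.48), PLEKHO1 (1.32) and the HES family repressor HES4 (1.40, and 0.62 without a call with the reference term). Among the falls, RARB, a retinoic acid receptor, had 1.79, 1.01, 1.24 and 1.70 CPM in αRes4, against 9.61 to 15.1 CPM in αMut1, a change of -3.11 (SE 0.24, adjusted p = 1.56e-13). PRF1, perforin, had 18.04, 16.12, 18.39 and 16.13 CPM in αRes4, against 65.5 to 159 CPM in αMut1. FRK, a Src-related kinase, and COX7B2 fell by 2.91 and 2.62. Over all genes, 1021 of the 3361 higher and 885 of the 2557 lower were not called against αWT, while 2336 and 1548 differed from αWT in the same direction as from αMut1.

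Every mitochondrially encoded messenger RNA was higher in αRes4 (13 of 13, median log2 change 1.30). MT-CO1, a subunit of cytochrome c oxidase, had 4864, 6209, 3674 and 2446 CPM in αRes4, against 1233 to 2365 CPM in αMut1 with a median of 1796, a change of 1.30 (SE 0.21, adjusted p = 2.38e-06). MT-ND5, of respiratory complex I, had 2860, 4004, 2032 and 1245 CPM in αRes4, against 431 to 1257 CPM in αMut1, so that αRes4 B4 lay within the αMut1 range. MT-ND6, the gene on the opposite strand, rose by 1.91. The 13 genes kept their calls against both αMut1 sets and with the reference term, and 9 of them did so in the 2-term fit.

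Transcripts that stay in the nucleus or lack a long poly(A) tail were higher too. NEAT1, the scaffold RNA of paraspeckles, had 766, 1070, 808 and 754 CPM in αRes4, against 259 to 442 CPM in αMut1, a change of 1.37 (SE 0.33, adjusted p = 0.000755). MALAT1, of nuclear speckles, had 1295, 1535, 1159 and 1225 CPM in αRes4, against 442 to 1145 CPM in αMut1, a change of 0.83, and 0.49 and 0.41 without a call against αMut1 B1 to B4 and in the 2-term fit. KCNQ1OT1, an imprinted antisense RNA, rose by 1.00. NEAT1 and KCNQ1OT1 lost their calls with the reference term (0.89 and 0.67).

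Of 30 tested replication-dependent histone genes, whose messengers normally end in a stem-loop, 17 were higher and none lower, with a median of 0.57. Against αMut1 B5 to B7 alone 14 were higher and 3 lower. H4C5 rose by 1.66, H2AC8 by 1.00, H2BC8 by 0.80 and H2BC5 by 0.63. H2BC5 had 47.3, 47.7, 54.4 and 53.9 CPM in αRes4, against 30.1 to 35.0 CPM in αMut1. Summed over the list, αRes4 held 1193 to 1268 CPM and αMut1 874 to 1085 CPM. Annotated long non-coding RNAs as a class followed, with 1076 of 2684 higher (40.1%) and 199 lower (7.41%) and a median of 0.48. Protein-coding genes divided almost evenly, with 14.5% higher and 16.2% lower of 12458. The lncRNA median was 0.49 against αMut1 B1 to B4, 0.51 against B5 to B7 and 0.26 with the reference term, where 628 were higher and 291 lower. The part of RNA extraction or poly(A) selection in these values was not tested.

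**Figure D2:**
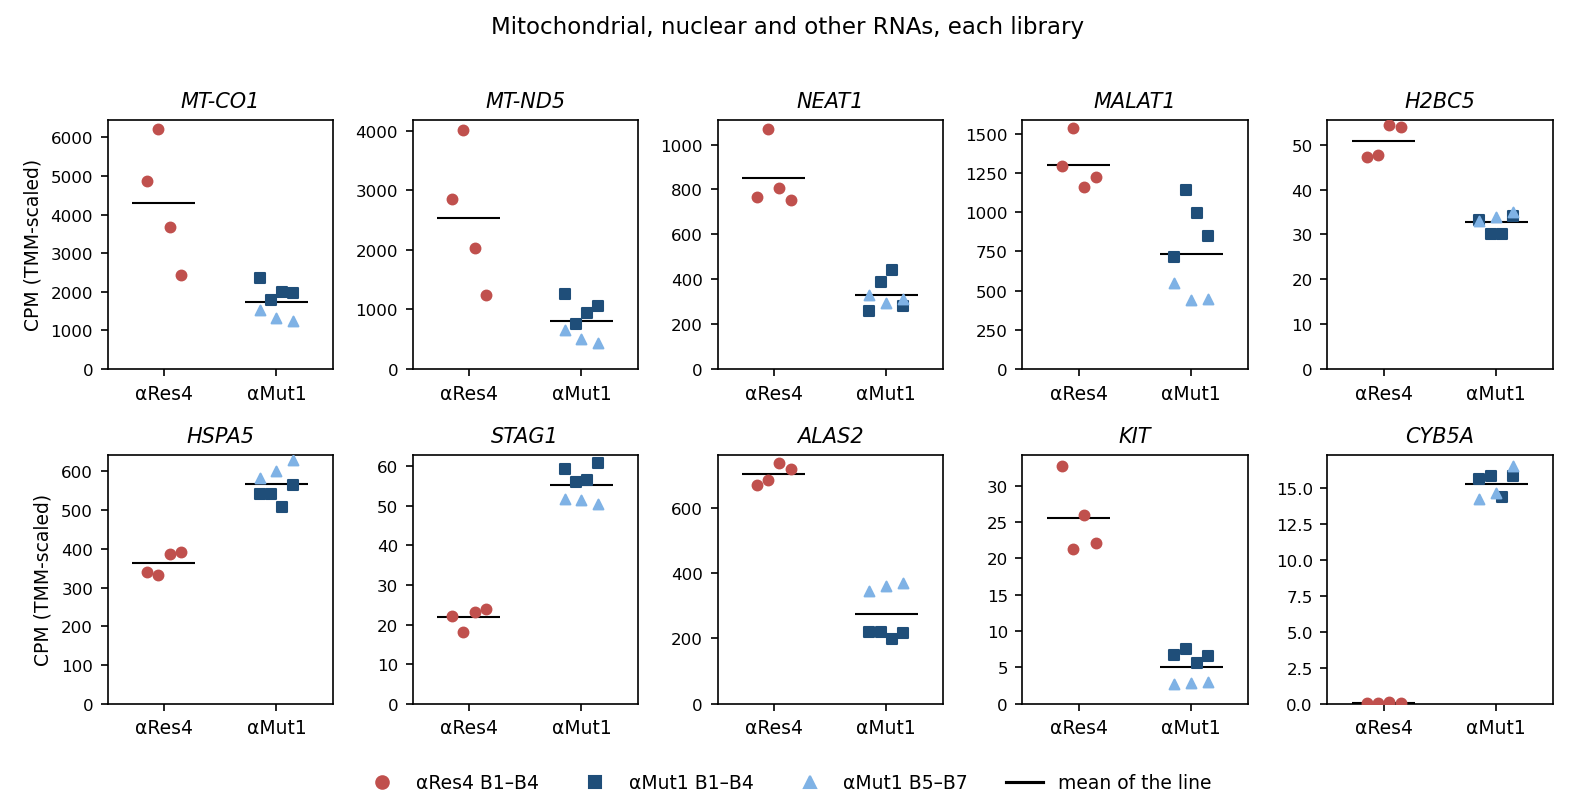
Levels of 10 genes in each library (y axes, TMM-scaled CPM from 0), αRes4 in red to the left of αMut1 in blue (squares for B1 to B4, triangles for B5 to B7), with bars for the mean of each line. MT-CO1 and MT-ND5 are highest in αRes4 B2 and lowest in αRes4 B4 within the clone, the lowest MT-ND5 library of αRes4 (1245 CPM) lying within the αMut1 range. HSPA5, STAG1 and CYB5A are lower in every αRes4 library, NEAT1, MALAT1, H2BC5, ALAS2 and KIT higher.

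Chaperones of the endoplasmic reticulum were lower in αRes4, 10 of 18 with none higher, and a median of -0.55. PDIA4, a protein disulfide isomerase, had 162, 154, 178 and 180.2 CPM in αRes4, against 311 to 438 CPM in αMut1, a change of -1.13 (SE 0.11, adjusted p = 3.61e-11), and -0.49 without a call in the 2-term fit. Its relative PDIA3 fell by 0.80. HSPA5, the lumenal chaperone BiP, had 340, 333, 386 and 392 CPM in αRes4, against 507 to 629 CPM in αMut1, a change of -0.64. XBP1, the factor that drives these genes in the unfolded protein response, fell by 0.66. With the reference term 5 of the 18 were lower and 1 higher, and in the 2-term fit 4 were lower and 2 higher. HSPA5 (-0.35 and -0.13) and XBP1 (-0.32 and -0.34) lost their calls in both fits.

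Targets of ATF4 and CHOP divided, with 3 of 25 higher and 6 lower. ATF5, a factor of the amino acid response, had 43.2, 42.6, 49.2 and 54.1 CPM in αRes4, against 133 to 221 CPM in αMut1, a change of -1.84 (SE 0.18, adjusted p = 6.39e-11). PSAT1, of serine synthesis, fell by 1.12. DDIT3, which encodes CHOP itself, rose by 0.86, and GDF15, a secreted stress cytokine, had 102, 93.8, 98.7 and 90.8 CPM in αRes4, against 34.2 to 43.8 CPM in αMut1, a change of 1.30.

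Interferon-stimulated genes were mostly lower, 16 of 28 with 2 higher and a median of -0.59. CMPK2, a mitochondrial nucleotide kinase of antiviral cells, had 19.4, 17.7, 21.2 and 22.4 CPM in αRes4, against 51.1 to 64.8 CPM in αMut1, a change of -1.52 (SE 0.15, adjusted p = 2.20e-10). IFITM2, which blocks viral entry, fell by 1.86 and IFIT3, a sensor of viral RNA, by 1.09. ISG20, an exonuclease, was an exception, with 3.08 to 3.54 CPM in αRes4 against 0.262 to 1.25 CPM in αMut1 and a rise of 2.18. The summed level of the list was 555 to 596 CPM in αRes4, against 764 to 950.1 CPM in αMut1 and 626 to 790.3 CPM in αWT, while its median log2 change against αWT was 0.47, opposite in sign to the difference in the summed level.

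Of 12 antigen presentation genes, 5 were lower and none higher. HLA-E had 30.0, 25.6, 29.32 and 27.97 CPM in αRes4, against 47.5 to 51.6 CPM in αMut1, a change of -0.82. HLA-C fell by 0.61 (-0.49 and not called against αMut1 B5 to B7) and TAPBP, which loads peptides on class I molecules, by 0.80. HLA-C was nevertheless 1.99 above αWT in αRes4.

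No tested member of the lists of chromatin architecture (36) or of remodelling and coactivators (23) was higher in αRes4, while 10 and 7 were lower. With the reference term architecture had 2 higher and 8 lower, and remodelling none and 15. In the 2-term fit the counts were 2 and 15 for architecture, and 1 and 11 for remodelling. Against either αMut1 set each list had 1 higher. STAG1, a cohesin subunit, had 22.1, 18.2, 23.3 and 23.8 CPM in αRes4, against 50.3 to 60.7 CPM in αMut1, a change of -1.33 (SE 0.18, adjusted p = 8.36e-08). MED12, of the Mediator kinase module, had 56.6, 55.1, 55.8 and 60.9 CPM in αRes4, against 115 to 164 CPM in αMut1, a change of -1.24. RAD21, the cohesin kleisin, fell by 0.65 and WAPL, which releases cohesin from DNA, by 0.63. RAD21 lost its call against αMut1 B5 to B7 (-0.46) and WAPL with the reference term (-0.43). Among remodellers, SMARCA2 (-1.02), PBRM1 (-0.72) and SMARCC1 (-0.67) of the BAF complexes were lower. The medians of these lists were -0.29 and -0.28, against -0.06 over protein-coding genes.

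Of 31 proteins known to bind or unwind G4s, 1 was higher and 7 lower, again with a median of -0.28. ATRX, a remodeller that deposits histone H3.3 at repeats, had 45.3, 40.5, 46.6 and 49.6 CPM in αRes4, against 66.2 to 99.4 CPM in αMut1, a change of -0.87 (SE 0.15, adjusted p = 6.80e-06). TAF15 (-0.65), MAZ (-0.56), YY1 (-0.56) and the helicase DHX36 (-0.58) were lower as well, of which DHX36 lost its call with the reference term (-0.28) and against αMut1 B5 to B7 (-0.43), YY1 with the reference term at -0.50, MAZ against αMut1 B1 to B4 (-0.44) and TAF15 in the 2-term fit (-0.48). EZH1, a Polycomb methyltransferase, was the member of the methylation and Polycomb list that rose, by 0.80. αRes4 B2, the library with the most mitochondrial RNA, had the lowest level of STAG1, MED12, RAD21, WAPL, PBRM1, SMARCC1 and DHX36 among the αRes4 cultures, and the part of mitochondrial RNA in these values was not tested.

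DNA replication and G1/S genes had no member higher and 7 of 23 lower. Against αMut1 B1 to B4 1 was higher and 4 lower, and against B5 to B7 none and 11. With the reference term 2 were higher and 5 lower, and in the 2-term fit 3 and 5. MCM7, of the replicative helicase, had 358, 327, 425 and 439 CPM in αRes4, against 528 to 841 CPM in αMut1, a change of -0.76. TYMS and RRM2, which make deoxynucleotides, fell by 0.56 and 0.60, and neither passed with the reference term (-0.39 and -0.37) or in the 2-term fit (-0.46 and -0.41). Of 20 mitosis genes, 4 were lower, among them the kinesin KIF11 (-0.99) and the topoisomerase TOP2A (-0.73, and -0.50 without a call against αMut1 B5 to B7), and 1 was higher. Over all genes 14.0% were lower and 18.4% higher. The inhibitor RB1 was lower as well (-0.83, and -0.45 with the reference term).

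In glycolysis, PKM, pyruvate kinase M, had 312, 288, 382 and 373 CPM in αRes4, against 635 to 761 CPM in αMut1, a change of -1.04 (SE 0.10, adjusted p = 1.16e-10), and PGK1 and LDHA fell by 0.70 and 0.62 (LDHA -0.45 and not called with the reference term). VEGFA, a hypoxia-induced growth factor, and PDK1, a kinase that inhibits pyruvate dehydrogenase, rose by 0.98 and 0.57. In all, 3 of 26 genes of this list were higher and 5 lower. Cholesterol synthesis had 5 of 26 higher, a share close to the 18.4% over all genes, and none lower. MSMO1, a sterol oxidase, led these, with 85.9, 78.7, 72.2 and 61.7 CPM in αRes4 against 26.3 to 34.2 CPM in αMut1 and a change of 1.27. IDI1 and MVK rose by 0.60 and 0.66 (MVK 0.42 and not called against αMut1 B5 to B7). Against αMut1 B5 to B7 alone 4 of the list were higher and 3 lower. With the reference term 6 were higher and 3 lower, and in the 2-term fit 12 were higher and 2 lower.

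Of 21 megakaryocyte markers, 13 were below 1 CPM in all 11 libraries and 5 of these at 0, and the summed level was 182 to 222 CPM in αRes4 against 135 to 150.0 CPM in αMut1, without overlap. Among the 9 tested, 5 were higher and 1 lower. RAB27B was the member that fell, with 4.38 to 6.84 CPM in αRes4 against 15.7 to 29.0 CPM in αMut1 (-1.89). With the reference term and in the 2-term fit no member was called lower. ITGA2B (-0.06), GP6 (0.15) and PLEK (0.32) were not called. TUBB1, the platelet tubulin, had 121.4, 100.9, 129.4 and 131.5 CPM in αRes4, against 54.9 to 90.3 CPM in αMut1, and ITGB3, the platelet integrin β3, 5.54 to 6.98 CPM against 2.13 to 4.49 CPM. Their changes were 0.77 and 0.99. TUBB1 lost its call with the reference term (0.23) and against αMut1 B5 to B7 (0.48). THBS1, a platelet thrombospondin that rose by 0.92, lost its call against αMut1 B1 to B4 (0.40) and with the reference term (0.80) and turned to -0.90 in the 2-term fit.

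Markers of granulocytes and monocytes (11 of 20 below 1 CPM), lymphoid cells (8 of 19) and stromal and epithelial cells (6 of 14) gave 1, 2 and 0 tested genes higher and 1, 5 and 2 lower. CD33, a myeloid surface receptor, fell by 1.14 (-0.49 and not called against αMut1 B5 to B7). LYZ, lysozyme of myeloid cells, reached up to 132.5 CPM in αRes4 and up to 209.6 CPM in αMut1, and was not called (-0.22). VIM, vimentin, which blood cell lines also express, had 414, 369, 458 and 462 CPM in αRes4, against 620.0 to 1008 CPM in αMut1, a change of -0.95. The part of other cell states in the results above was not tested.

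Further lists held single genes with clear differences. DLK1, an imprinted Notch ligand relative, had 286, 255, 296 and 286 CPM in αRes4, against 56.5 to 70.9 CPM in αMut1, a change of 2.16 (SE 0.19, adjusted p = 5.14e-12). HEY1, a Notch target, rose by 2.03, with 29.3 to 37.0 CPM in αRes4 against 3.61 to 12.3 CPM in αMut1, while its relative HES1 fell by 0.63 (-0.28 and not called against αMut1 B5 to B7). The Wnt list had 8 of 19 lower, among them CTNNB1, β-catenin (-0.74), and the receptor FZD1 (-1.10), and none higher. Against αMut1 B1 to B4 3 of that list were higher and 7 lower, and in the 2-term fit 2 and 11. Among cancer-testis antigens, 4 of 25 were higher and 6 lower, against 18.4% and 14.0% over all genes. MAGEC1 had 26.0 to 30.1 CPM in αRes4, against 117 to 135 CPM in αMut1, and PAGE4 9.28 ± 0.54 CPM against 1.21 ± 0.40 CPM.

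Called genes were not spread evenly over the chromosomes. On chromosome 18 from 50 Mb to the end of the long arm, 58 of 82 tested genes were lower in αRes4 (4 higher), with a median log2 change of -0.93, against -0.01 over the 15373 genes outside chromosomes 1, 18, X and the mitochondrial genome. The boundary was placed after the values were seen, so no test is given. The summed level of the 82 genes was 1585, 1503, 1536 and 1540 CPM in αRes4, against 2704 to 2825 CPM in αMut1, and the other 39 libraries of the α series ranged between 2594 and 3234 CPM. The median was -0.94 against either αMut1 set and -0.96 with the reference term, and in αRes1, αRes2 and αRes3 against αMut1 it was 0.06, -0.02 and 0.01. The region holds MBD2 (chr18:54151606-54224669), FECH (chr18:57544377-57586732) and CYB5A (chr18:74250846-74291973), whose falls are given above. The lower values did not end at this boundary. Between 40 and 50 Mb 12 of 24 genes were lower (median -0.50), between 30 and 40 Mb 16 of 38 (-0.44) and between 20 and 30 Mb 7 of 21 (-0.36), with 1, 2 and none higher. Between 10 and 20 Mb 6 of 32 were higher and none lower (0.09), and in the first 10 Mb 13 of 60 were higher and 7 lower (0.10).

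Chromosome 1 leaned the other way, with 551 of 1821 genes higher and 111 lower. Below 50 Mb of it 231 of 620 were higher and 23 lower, with a median of 0.32, and UROD, RHD, RHCE and SLC2A1 lie there. Against αWT the median over chromosome 1 was 0.05 in αRes4, and it was -0.20 in αMut1. On the X chromosome 186 of 733 were lower and 90 higher, with a median of -0.19. The X median was -0.11 against αMut1 B1 to B4, -0.15 against B5 to B7 and -0.03 with the reference term. In the first 10 Mb of chromosome 16, which hold the α-globin cluster, 46 of 193 genes were higher and 14 lower, with a median of 0.07. That median was 0.31 against αMut1 B1 to B4, -0.17 against B5 to B7 and -0.09 with the reference term. Against αWT the median of these genes was -0.45 in αRes4 and -0.58 in αMut1. DNA copy number was not measured in these libraries, and its part in the regional differences was not tested.

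**Figure D3:**
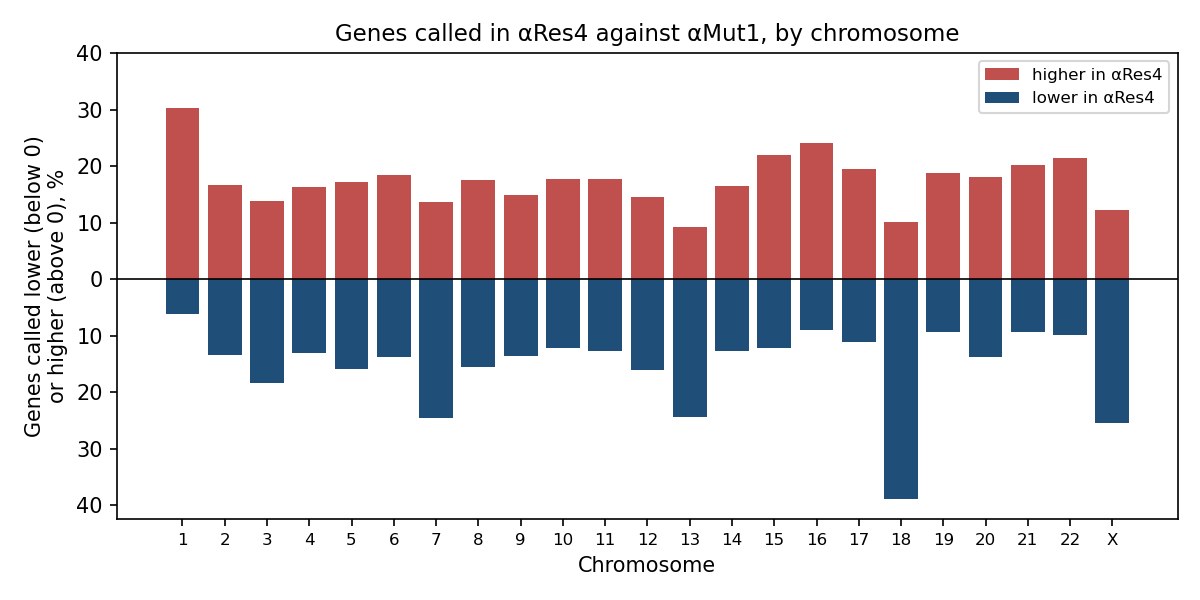
Share of tested genes called higher (red, above 0) or lower (blue, below 0) in αRes4 than in αMut1 on each chromosome (y axis, percent). Chromosome 1 has the largest share of genes higher, 551 of 1821, and chromosome 18 the largest share lower, 100 of 257.

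Among protein-coding genes, longer transcripts were lower more often. Divided into 5 groups of equal size, the group with the shortest transcripts had 19.3% of its genes higher and 10.2% lower, with a median of 0.08, and the group with the longest 10.3% higher and 22.8% lower, with a median of -0.19. The order of these medians was kept against either αMut1 set and with the reference term. Medians of 5 groups by GC content ran between -0.14 (lowest GC) and 0.05 (highest), but against αMut1 B5 to B7 the group with the highest GC had a median of -0.15, and with the reference term the order was turned round (0.07 and -0.30).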

How the data were processed

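The deposited values are whole-number counts of reads per gene. The authors made them from 51-base read pairs by trimming with cutadapt at a quality of 20, aligning to hg38 with bwa mem, sorting with SAMtools 1.15.1, removing duplicates with Picard and counting with featureCounts on GENCODE 42. Strand setting and treatment of multi-mapping reads are not given in the sources used here. Use of 2 alignment references was inferred from pseudoautosomal counts, and 29 genes counted under one of them only were left out.

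Names and positions came from GENCODE 44 (62625 of 62696 identifiers matched). The 43 α-series libraries were fitted together in edgeR 4.0.16 (R 4.3.3) with TMM scaling, a group mean per line and the quasi-likelihood test, on genes averaging at least 10 counts per library. Benjamini-Hochberg adjustment ran over all genes tested, and all adjusted p-values in the text come from edgeR unless another test is named. The procedure was tested on simulated data that held no difference between the αMut1 sets and no shift between references, so that test does not bear on these. Alternatives were DESeq2 1.42.0, other filters and size factors, leaving out each library, a replicate block, either αMut1 set alone, the 11 libraries alone, the reference term and a number-set term (B1 to B4 against later numbers).

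Named genes are the globins and their neighbours, the 12 largest changes each way under the conditions in the text, and up to 6 per list by adjusted p. Up to 6 each way that were called alike in 3 contrasts or lay within 0.25 of αWT were added. Members and the 42 lists were chosen with earlier results of these data known. Counts from the β series were not used here, and some items are not reported here.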

Additional observations from a re-analysis of the deposited data

Results flagged for a closer look

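Log2 changes against αMut1 in αRes4 exceeded their mean in αRes1 to αRes3 by 0.66 for HBE1 (SE 0.19, edgeR adjusted p = 0.0035), 1.53 for HBD (SE 0.23, 9.25e-07) and 2.92 for HBB (SE 0.33, 1.65e-09). αMut1 cancels out of these differences.

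Single libraries stood far from the rest of their line in 9 of the 292 groups of values examined, where chance alone marks about 1 in 20. In αRes4 B2, SLC25A37 reached 1803 CPM (next library 1467), ABCB6 32.2 CPM (next 26.5) and the histone gene H4C5 7.95 CPM (next 6.03), and B2 also held the most mitochondrial RNA. In αRes4 B4, MYB reached 140.8 CPM (next 128.7), RUNX1 75.02 CPM (next 65.2) and CHST3 19.1 CPM (next 16.9), and in αRes4 B3 XBP1 reached 75.5 CPM (next 67.1). On the low side were IKZF1 in αMut1 B2 with 148.1 CPM (next 165.5) and RRM2 in αMut1 B3 with 263.4 CPM (next 289.5). All 9 values lay on the same side of the other line as the rest of their line.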

How the results depend on the processing

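Treatment of the alignment references mattered most. With the reference as a term, HBA1 changed by 0.39 (SE 0.21, edgeR adjusted p = 0.129) and no longer passed, NPRL3 turned to -0.024 (0.855) and SLC4A1 to -0.26 (0.442), and 23 further named genes lost their calls. In the libraries of αRes1 and αRes2, on which this term rests, the reference coincides with the number set. With the reference and the number set as terms, HBA1 changed by 1.04 (0.000527) and passed, 14 named genes lost their calls, 4256 genes were lower in αRes4 than in αMut1 in place of 2557, FSTL5 turned to 3.31 (0.389) and THBS1 to -0.90 (0.081). Against αMut1 B5 to B7 alone, AHSP turned to -0.77 (6.92e-07). The cause of these shifts was not tested. DESeq2, its size factors and the other filters left every one of the 145 genes followed on its side of the threshold. Leaving out each library in turn gave 2711 to 3379 genes higher, 2172 to 2660 lower and an HBA1 change of 0.94 to 1.07. Without αRes4 B2, HBQ1 (0.62, adjusted p = 0.077) and YY1 (-0.50) lost their calls, and without αRes4 B1 THBS1 did (0.82, 0.0564). Same-numbered libraries of αRes4 and αMut1 correlated at 0.12, 0.05, -0.11 and 0.18 in their deviations from the line means, not each αRes4 library correlated best with its own number, and the numbers were not taken to pair them. With the replicate number as a block, 3859 genes were higher and 2932 lower, HBA1 changed by 1.25 (2.41e-08), HBG2 gained a call (0.56) and IDI1 lost it (0.49). Depth limits genes of a few reads per library, such as CYB5A or AMBN in αRes4, whose fold changes depend on small counts.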
